A study of Sus scrofa with 9 samples.

Results

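TRIM63 and FBXO32 are the pair of muscle ubiquitin ligases known as MuRF1 and atrogin-1 (MAFbx). Both were taken as the rows of the deposited expression table whose gene identifier maps to these pig symbols: 2 entries, ENSSSCG00000027684 for TRIM63 and ENSSSCG00000005981 for FBXO32, of 19643 in all. Total RNA was sequenced from embryonic pigs of 3 breeds, out of a muscle that runs along the back (longissimus dorsi). The Tibetan pig (3 libraries) and the Wujin pig (3 libraries) are labelled as indigenous Chinese breeds, and the Large White pig (3 libraries) is the other breed. No treatment or genetic change is named for any group, and all groups share the label embryonic without a day of gestation, so breed and a difference in stage cannot be told apart. The series is titled as a study of how muscle before birth relates to growth after birth. Of the Wujin libraries 1 carries its number, and the 2 others, which share a column header, are called Wujin a and Wujin b.

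In the ubiquitin-proteasome system an activating enzyme (E1) and a conjugating enzyme (E2) pass ubiquitin to a ligase (E3), which selects the protein to be marked, and the proteasome then degrades marked proteins. TRIM63 is a RING-finger ligase of the sarcomere, the contractile unit of the muscle fibre, and its reported targets include thick-filament proteins and troponin. FBXO32 is an F-box protein, the substrate-selecting part of a Skp1-Cul1-F-box (SCF) ligase, with reported targets among growth and differentiation factors such as MyoD. Both genes are best known for their induction when adult muscle wastes through disuse, fasting, glucocorticoids or disease, where FoxO transcription factors switch them on and insulin-like growth factor signalling through Akt holds those factors back. Both are expressed in striated muscle and serve as markers of muscle protein breakdown.

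Values are FPKM, fragment numbers scaled to transcript length and library size, so levels may be set side by side between genes. The Tibetan libraries stood apart from the rest in the whole table. Their 10 highest entries held 32.6 to 40.8% of all FPKM, where those of Wujin held 22.3 to 22.8% and those of Large White 18.8 to 25.0%, and the median FPKM of the entries tested was 3.15 to 3.61, 4.84 to 6.27 and 6.72 to 7.20 in turn. Relative depth, read from the steps between low values, lay between 1.0 and 1.22 times that of Large White 1, with Tibetan 1 the deepest. The number of fragments behind a value is unknown, so no counting interval is given. The labels do not say whether libraries of 1 breed stem from different animals; the spread that p-values rest on here may therefore be technical. Summed FPKM of the 8 matched skeletal muscle markers other than ACTA1, skeletal alpha-actin, was 11087 to 12870 for Tibetan, 5661 to 6192 for Wujin and 4512 to 5537 for Large White, so the labelled tissue's markers were present in every library. ACTA1 itself is listed at 0 in Tibetan 2 but at 37424 and 41829 FPKM in Tibetan 1 and 3, so an exact 0 in this table need not mean an absent transcript.

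Both ligases were highest in Tibetan muscle, and their means followed the same order of breeds: Tibetan, then Wujin, then Large White. The step from Wujin to Large White was small and was not called for either gene (adjusted p = 0.132 and 0.525 by limma, described below). TRIM63 stood at 92.3, 97.7 and 81.1 FPKM in Tibetan 1, 2 and 3, at 9.36 (Wujin 1), 11.6 (Wujin a) and 9.80 FPKM (Wujin b), and at 9.31, 7.61 and 5.33 FPKM in Large White 1, 2 and 3. Every Tibetan library lay above every library of the other breeds, and the lowest of them was 6.98 times the highest Wujin library; 14.1% of entries tested had every Tibetan library above every Large White library, and 14.2% above every Wujin library. Means were 90.4 ± 8.45 (SD, n = 3), 10.3 ± 1.20 (SD, n = 3) and 7.42 ± 1.996 (SD, n = 3) FPKM. Among all 19643 entries of a library, TRIM63 ranked between 499 and 596 from the top for Tibetan, between 4085 and 4767 for Wujin and between 5216 and 7963 for Large White.

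FBXO32 stood at 50.7, 21.7 and 14.9 FPKM in Tibetan 1, 2 and 3, at 3.05 (Wujin 1), 3.27 (Wujin a) and 3.54 FPKM (Wujin b), and at 2.96, 1.998 and 2.27 FPKM in Large White 1, 2 and 3. Tibetan 1 was far above the other 2 Tibetan libraries, which still lay above all Wujin and Large White libraries. Means were 29.1 ± 19.0 (SD, n = 3), 3.29 ± 0.244 (SD, n = 3) and 2.41 ± 0.497 (SD, n = 3) FPKM. Within every library FBXO32 was lower than TRIM63 per unit of length.

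**Figure D1:**
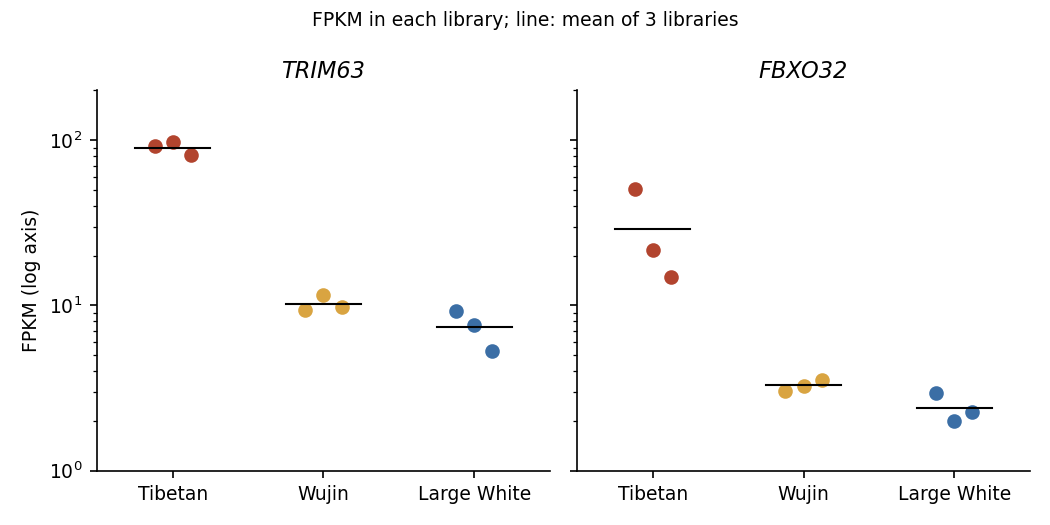
FPKM of TRIM63 (left) and FBXO32 (right) on a log axis in each of 3 libraries per breed; points are libraries and lines are means of 3. All Tibetan points lie above all others, TRIM63 at 81.1 to 97.7 FPKM in a narrow band and FBXO32 spread from 14.9 to 50.7 FPKM.

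Against Large White, the ratio of mean FPKM was 12.2 for TRIM63 and 12.1 for FBXO32 in Tibetan muscle. The Tibetan mean of FBXO32 leaned on Tibetan 1, at 50.7 FPKM against 21.7 and 14.9 in Tibetan 2 and 3, which was not so for TRIM63. limma was fitted to log2(FPKM + 1) of the 13106 entries that averaged 1 FPKM or more, with Benjamini-Hochberg adjustment over all of them, and an entry is called at an adjusted p under 0.05; both genes passed the filter. On that scale, which understates changes of low genes, TRIM63 was higher by 3.46 ± 0.18 (SE, 95% interval 3.06 to 3.87, adjusted p = 3.72e-07) and FBXO32 by 2.97 ± 0.36 (SE, 2.17 to 3.78, adjusted p = 5.68e-05). The background is wide: 76.2% of entries tested were called in this comparison, 13.0% as higher and 63.2% as lower, with a median log2 change of -0.77. Counted from that median, the relative changes were 4.24 and 3.74. By size of the log2 change TRIM63 was in place 102 and FBXO32 in place 154 of 13106. When libraries were scaled by median ratios, which brings the median change of all entries to -0.01, the log2 changes were 4.38 and 3.79.

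Against Wujin, the ratio of means was 8.81 for TRIM63 and 8.86 for FBXO32, the latter again leaning on Tibetan 1. The log2 change was 3.02 ± 0.18 (SE, adjusted p = 1.05e-06 by limma) for TRIM63 and 2.63 ± 0.36 (SE, adjusted p = 0.000159) for FBXO32, with 67.7% of entries called, 13.8% higher and 53.9% lower, and a median of -0.55. These were places 124 and 177 by size. The Tibetan libraries serve in both comparisons, so the 2 results are not independent. The F test over the 3 breeds gave an adjusted p of 6.21e-07 for TRIM63 and 0.000100 for FBXO32, where 77.6% of entries were called.

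Wujin and Large White, neighbours in the order, were not separated by the test. The ratio of means was 1.38 for TRIM63 and 1.36 for FBXO32. For TRIM63 the log2 change was 0.44 ± 0.18 (SE, 95% interval 0.034 to 0.85), with an unadjusted p of 0.0368 and an adjusted p of 0.132 by limma. For FBXO32 it was 0.34 ± 0.36 (SE, -0.47 to 1.14, adjusted p = 0.525). All Wujin values lay above all Large White values for both genes, but the lowest Wujin library was only 1.005 times the highest Large White library for TRIM63 and 1.03 times for FBXO32. Among all entries tested, 9.67% had every Wujin library above every Large White library, and 6.52% were called.

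The spread among libraries of 1 breed was not alike for the pair. In Tibetan muscle the highest FBXO32 value was 3.40 times the lowest, and its SD on the log2 scale, 0.87, was larger than that of 97.8% of entries tested. TRIM63 in the same libraries spanned 1.20 times, with an SD of 0.14 that exceeded 32.0% of entries. In Wujin the SD of FBXO32 exceeded 12.5% of entries and that of TRIM63 32.0%. In Large White both varied, TRIM63 by 1.75 times from lowest to highest and FBXO32 by 1.48 times. The SD of TRIM63 was above that of 92.6% of entries and that of FBXO32 above 77.2%, on a scale that understates the spread of low genes. Without Tibetan 1, the log2 change of FBXO32 from Large White was 2.49 (adjusted p = 1.52e-05 by limma) and that of TRIM63 was 3.45.

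FBXO32 as a share of TRIM63 in the same library does not change when a library is multiplied by a single factor; quantile normalization does change it. It was 54.9, 22.3 and 18.4% in Tibetan 1, 2 and 3, then 32.6 (Wujin 1), 28.2 (Wujin a) and 36.1% (Wujin b), and 31.8, 26.3 and 42.6% in Large White 1, 2 and 3. Tibetan libraries held both the highest and the lowest shares, and the breeds overlapped. Means were 31.9 ± 20.1, 32.3 ± 3.99 and 33.5 ± 8.29% (SD, n = 3 each). The tests took the log2 ratio after 1 FPKM was added to each gene. Unlike the share, that ratio does change when a library is multiplied by a factor. The added 1 FPKM weighs more on FBXO32, the lower gene. Mean log2 ratios were -1.78, -1.39 and -1.29 for Tibetan, Wujin and Large White. An exact permutation test of this log2 ratio over all 1680 assignments, which can go no lower than 0.00357, gave p = 0.471. The 3 pairs gave exact permutation p of 0.4, 0.7 and 0.4 (two-sided, smallest possible 0.1; adjusted 0.6, 0.7 and 0.6) for Tibetan and Large White, Wujin and Large White, and Tibetan and Wujin. This result moved with single libraries: with 1 left out, the exact permutation p over the breeds lay between 0.025 and 0.914. The lowest value, unadjusted, came without Tibetan 1, the library of the most extreme share, so no breed difference is read from it. In the other 2 Tibetan libraries the share was lower than in all 6 Wujin and Large White libraries.

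**Figure D2:**
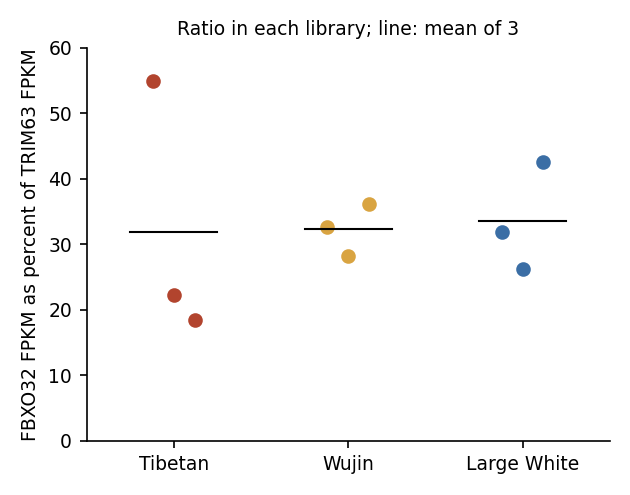
FBXO32 FPKM as a percentage of TRIM63 FPKM in each library of the 3 breeds; points are libraries and lines are means of 3. Tibetan 1 is the highest of all at 54.9%, the other Tibetan libraries are the lowest at 22.3 and 18.4%, and the 3 means lie between 31.9 and 33.5%.

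The genes most like each ligase over the 9 libraries were sought by Pearson r of log2(FPKM + 1) among 8062 tested symbols. The libraries share breed, so these r mostly describe the breed difference and are given without a test. TRIM63 was most like WDR45, an autophagy protein (r = 0.997), ACADVL, an enzyme of fatty acid oxidation (0.995), MYOZ1, a Z-disc protein (0.994), YBX3 (0.993), CCDC160 (0.993) and BAG3, a co-chaperone of the Z-disc (0.993). FBXO32 was most like PPARGC1A, the coactivator PGC-1alpha (r = 0.991), GOLGA4 (0.988), FOXO1, a FoxO factor (0.986), ZFAND5 (0.984), MAFF (0.983) and VEGFA, the angiogenic growth factor (0.982). The lists share no gene. TRIM63 and FBXO32 had r = 0.956 with each other, place 268 in likeness to TRIM63 and place 64 in likeness to FBXO32.

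Within breeds the pair had less in common. After each breed's mean was subtracted, r between them was 0.28. The genes most like TRIM63 then were AGBL5 (0.963), CHST7, IL18, FAM185A, ZC2HC1B and THUMPD2 (0.930), each of which was called lower in Tibetan than in Large White muscle as deposited; ZC2HC1B is listed at 0 in all Tibetan libraries, CHST7 and FAM185A turned sign under quantile normalization, and the calls of AGBL5 and THUMPD2 ended under it. For FBXO32 they were TPRKB (0.980), CYP2D6, LYAR, DDIT4L, PRKAG2 and EIF5B (0.962). All 12 genes of the FBXO32 lists were highest in Tibetan 1 of the Tibetan libraries, which their choice by likeness to FBXO32 favours, so these values are a description. DDIT4L, an inhibitor of mTOR signalling, stood at 301, 56.5 and 34.8 FPKM in Tibetan 1, 2 and 3. PRKAG2, a regulatory subunit of the energy sensor AMPK, stood at 67.1, 9.47 and 4.96 FPKM. PPARGC1A stood at 44.8, 21.5 and 12.9 FPKM, FOXO1 at 21.3, 9.91 and 9.23 FPKM, and VEGFA at 109.7, 57.8 and 49.0 FPKM. Of 10635 entries averaging 1 FPKM or more over Tibetan libraries, 169 (1.59%) were at least 2 times higher in Tibetan 1 than in both other Tibetan libraries, against 1.12% for Tibetan 2 and 1.07% for Tibetan 3. FBXO32 was one of them, and TRIM63, at 0.944 times Tibetan 2, was not.

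**Figure D3:**
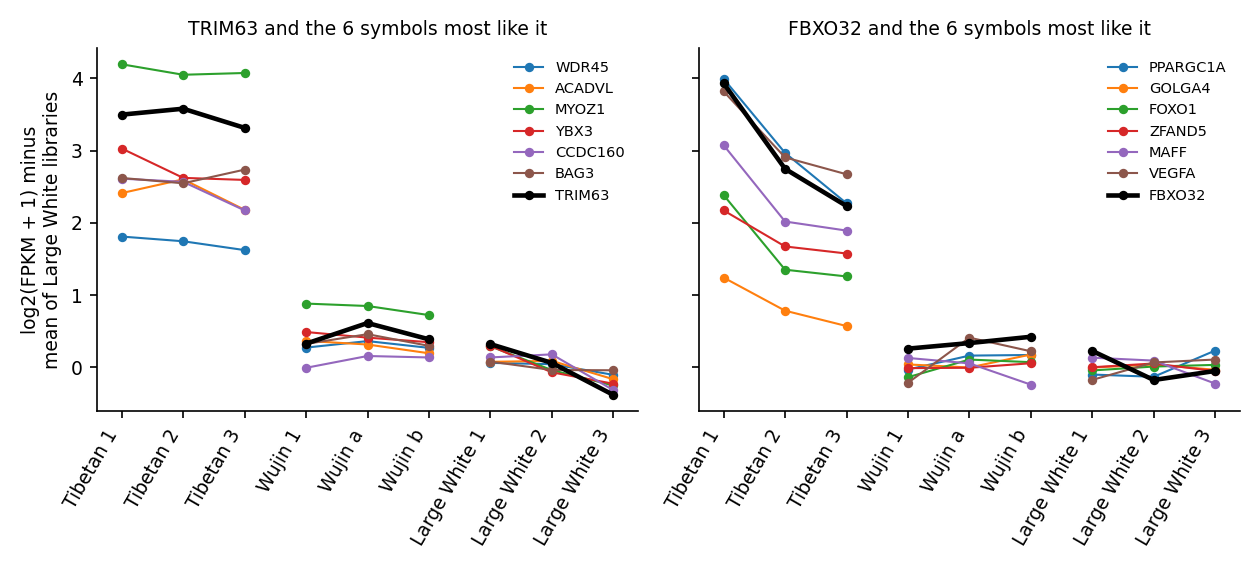
TRIM63 (left) and FBXO32 (right), in black, with the 6 symbols of highest Pearson r with each, as log2(FPKM + 1) minus the mean of the Large White libraries; lines only join the points of a gene within a breed. Among the Tibetan libraries, every gene of the right set is highest in Tibetan 1.

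Other ubiquitin ligases of muscle did not share one direction. Of 33 ligases listed beside the pair, 25 were matched by symbol and tested; against Large White, 9 were higher in Tibetan muscle, 10 were lower and 6 were not called by limma, beside 13.0 and 63.2% of all entries. The list's median log2 change was -0.16, against -0.77 over all entries. Under median-ratio scaling the split was 14 higher and 5 lower, beside 32.4 and 33.0% of all entries. FBXO40, an F-box ligase of striated muscle reported to target the insulin receptor substrate IRS1, stood at 27.8, 31.5 and 47.4 FPKM in Tibetan 1, 2 and 3 but between 0.133 and 0.442 for Wujin and between 0.0917 and 0.228 for Large White. Its log2 change from Large White, 4.93 ± 0.20 (SE, adjusted p = 1.14e-07), was larger than that of either member of the pair. ASB2, the substrate receptor of a cullin ligase for filamins, stood at 181.1, 98.0 and 168.1 FPKM against 5.25 to 6.18 in Large White libraries, with a log2 change of 4.42 ± 0.23 (SE, adjusted p = 3.60e-07). ASB5 (log2 change 2.30), ASB15 (1.86), FBXO31 (2.22) and the HECT ligase WWP1 (2.22) were also higher. Smaller differences were called for STUB1, the chaperone-linked ligase CHIP (0.88), TRIM72, the membrane-repair protein MG53 (0.70), and the mitochondrial ligase MUL1 (0.56).

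The closest measured relative of TRIM63 went the other way. TRIM55, or MuRF2, stood at 9.27, 11.1 and 12.5 FPKM in Tibetan libraries against 35.2 to 42.2 for Wujin and 34.2 to 43.2 for Large White, a log2 change from Large White of -1.78 ± 0.15 (SE, adjusted p = 5.77e-06 by limma), and -0.85 under median-ratio scaling. In Large White muscle TRIM55 was thus above TRIM63 in every library, and in Tibetan muscle it was below TRIM63 in every library. TRIM32, a ligase of desmin and thin-filament proteins (-1.33), CBLB (-1.35) and NEDD4L (-1.66) were also lower. FBXO30, the ligase MUSA1 (-0.51), XIAP (-0.53) and HUWE1 (-0.80) were called lower as deposited but stood at 0.22, 0.25 and 0.14 under median-ratio scaling, and the call of FBXO21 ended under it. The call of SMURF1 (-0.98) ended under quantile normalization. FBXW7, MDM2, ITCH, UBR4 and KLHL40 were among those not called. Between Wujin and Large White, limma called 0 of the 25 ligases in either direction, beside 1.67% of all entries higher and 4.85% lower. At an unadjusted p under 0.05, 2 were higher and 7 lower. No share of all entries at an unadjusted p is at hand, here or for the lists below. The median log2 change of all entries was -0.20, so no trend is read from such counts. Between Tibetan and Wujin 10 were higher and 6 lower, beside 13.8 and 53.9% of all entries. Under median-ratio scaling these counts were 16 and 4, beside 30.9 and 30.4%, and under equal FPKM totals 8 and 9. With equal totals 9531 of all 13106 entries were called in either direction, against 8871 as deposited.

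**Figure D4:**
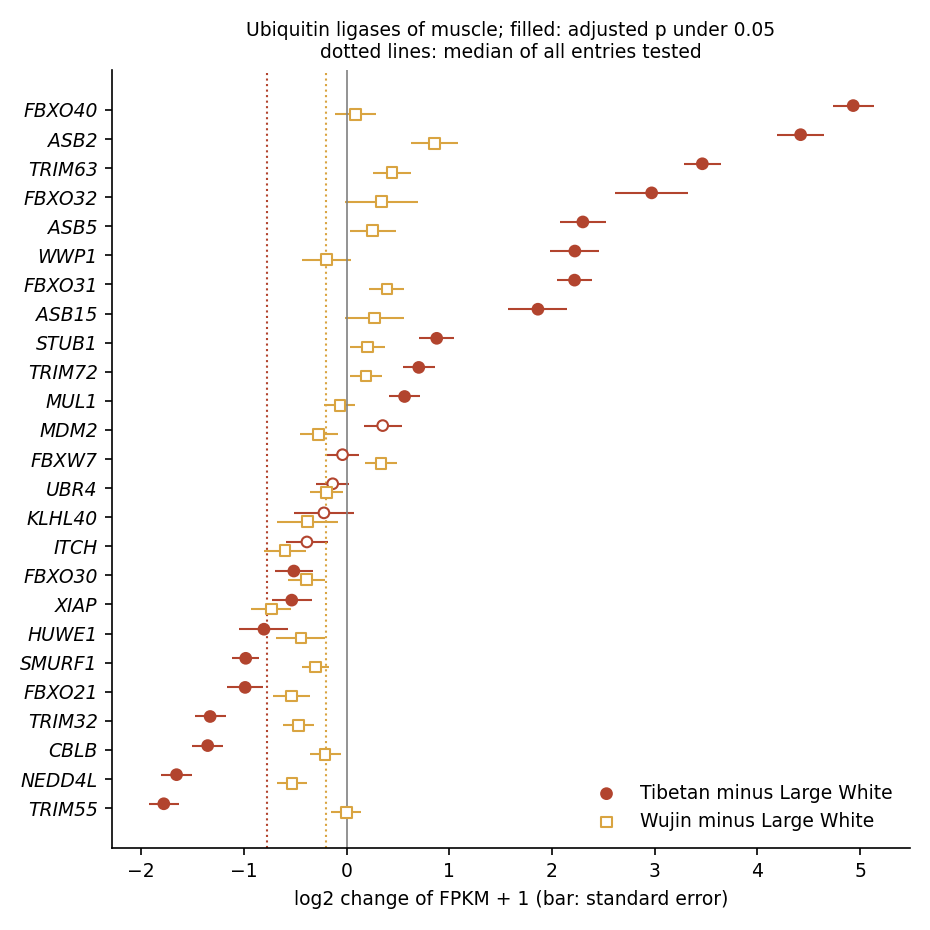
log2 change of FPKM + 1 for TRIM63, FBXO32 and other muscle ligases tested, Tibetan minus Large White (circles) and Wujin minus Large White (squares), with standard errors; filled symbols have an adjusted p under 0.05, and dotted lines mark the medians of all entries. FBXO40 and ASB2 lie to the right of TRIM63 and FBXO32, TRIM55 is at the far left, and no square is filled.

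The general machinery on which the ligases rely was represented by ubiquitin-cycle and proteasome genes. Of 27 tested genes for ubiquitin, E1 and E2 enzymes, the SCF core and deubiquitinases (44 listed), 5 were higher and 10 lower in Tibetan than in Large White muscle, beside 13.0 and 63.2% of all entries; the median was -0.22. Scaling by median ratios gave 18 higher and 3 lower, beside 32.4 and 33.0%. The deubiquitinases USP2 (31.8 to 44.6 against 7.86 to 9.25 FPKM, log2 change 2.01) and USP13 (1.57) were higher, and USP1, which acts in DNA repair, was lower (-1.63). CUL1, the scaffold of the FBXO32 complex, was not called (-0.30). Of 23 proteasome genes tested (43 listed), 10 were higher, 1 was lower and 12 did not pass, beside the same shares of all entries, and the median was 0.25; scaling by median ratios gave 21 higher and 0 lower. PSMD11, a subunit of the regulatory particle, stood at 64.1, 37.1 and 62.8 FPKM against 19.3 to 20.5 (log2 change 1.38, adjusted p = 0.000231 by limma), and PSMD3 was higher by 1.20. Among the core-particle genes PSMA3 (0.64) and PSMA5 (0.28) were higher, the latter not under equal FPKM totals, and PSMB7 (-0.54) was lower as deposited but at 0.43 under median-ratio scaling. Between Wujin and Large White, 1.67% of all entries were called higher and 4.85% lower. Of these proteasome genes, the Wujin libraries had 0 higher and 1, PSMA5, lower by limma (0 and 6 at an unadjusted p under 0.05). Of the ubiquitin list they had 0 higher and 1, the E1 gene UBA6, lower (0 and 11). Both of those calls ended under median-ratio scaling. Between Tibetan and Wujin, 13 proteasome genes were higher and 1 lower, and 9 and 9 of the ubiquitin list, beside 13.8 and 53.9% of all entries. Under median-ratio scaling these were 20 and 0, and 17 and 4, beside 30.9 and 30.4%, and under equal FPKM totals 7 and 1, and 7 and 11. With equal totals 9531 of all 13106 entries were called in either direction, against 8871 as deposited. Without Tibetan 1, as without Tibetan 3, the 9 ubiquitin-list genes called higher became 5. Of all entries, 8376 and 8347 were then called in either direction.

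Factors known to act upstream were described in 3 lists: ligands and receptors, signal carriers and transcription factors. Of 20 tested ligands and receptors (31 listed), 4 were higher and 14 lower in Tibetan than in Large White muscle, near the 13.0 and 63.2% of all entries, with a median of -1.13. Under median-ratio scaling 7 and 10 were called, beside 32.4 and 33.0%. IGF1, the growth factor that restrains both ligases in adult muscle, stood at 2.84, 4.72 and 4.22 FPKM in Tibetan against 12.1, 24.1 and 14.8 in Large White libraries (log2 change -1.83, adjusted p = 0.000648 by limma). Its receptor IGF1R was lower by a log2 change of -1.04, a call that ended under quantile normalization. MSTN, myostatin, an inhibitor of muscle growth, stood at 0.468, 2.26 and 4.31 FPKM against 27.4 to 33.5 (log2 change -3.40). Its antagonist FST was also lower (-2.35), as was CHRNA1, a subunit of the acetylcholine receptor whose expression outside the synapse falls once muscle is innervated (-3.87). HSD11B1, the enzyme that regenerates active glucocorticoid, was higher, at 8.20 to 10.5 FPKM against 2.54 to 2.86 (log2 change 1.51, adjusted p = 5.68e-06), as was TNFRSF12A, the receptor Fn14 (1.32). NR3C1, the glucocorticoid receptor, was lower as deposited (-1.16), a call that ended under median-ratio scaling and quantile normalization.

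Of 24 tested kinases and signal carriers (31 listed), 5 were higher and 10 lower (all entries: 13.0 and 63.2%), median -0.23, or 12 and 4 under median-ratio scaling (all entries: 32.4 and 33.0%). AKT2, an Akt kinase that restrains FoxO factors, was higher by 0.51, and EIF4EBP1, a translation repressor downstream of mTOR, by 0.95. SMAD1 (-1.43) and SMAD2 (-1.84), carriers of bone morphogenetic protein and of myostatin or activin signals, were lower. Of 22 tested transcription factors and cofactors (32 listed), 8 were higher and 5 lower, median 0.04, or 17 and 3 under median-ratio scaling, beside the same shares of all entries. Of the FoxO genes, FOXO1 was higher, at 21.3, 9.91 and 9.23 FPKM in Tibetan against 3.15 to 3.38 in Large White libraries (log2 change 1.66, adjusted p = 0.000329 by limma), whereas FOXO3 (-0.03) and FOXO4 (-0.04) were not called. KLF9 and FKBP5, both known as glucocorticoid-induced genes, were among the larger differences: KLF9 stood at 14.7, 23.5 and 19.7 FPKM against 0.164 to 0.243 (log2 change 4.05), and FKBP5 at 69.4, 47.5 and 59.2 FPKM against 3.83 to 7.56 (3.16). JUNB, a regulator of muscle mass, was higher by 2.75 and PPARGC1A by 3.08, and MEF2C, a factor of muscle differentiation, was lower (-1.74). TFEB, a regulator of lysosome genes, was called in all 3 comparisons: 10.9 to 15.7 FPKM for Tibetan, 5.52 to 7.09 for Wujin and 2.99 to 3.51 for Large White, with adjusted p = 0.0346 by limma for Wujin against Large White. That last call ended without Wujin 1, without Wujin a and without any 1 of the Large White libraries. It was the only one of the 22 called between those 2 breeds, beside 1.67% of entries called higher, and 4 higher and 1 lower had an unadjusted p under 0.05. Of the 20 ligands and receptors and the 24 kinases and carriers, limma called 0 between Wujin and Large White, beside 1.67 and 4.85% of all entries. At an unadjusted p under 0.05 there were 1 higher and 7 lower, and 1 higher and 6 lower.

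Autophagy is the other main degradation route of muscle. Of 29 tested genes (35 listed), 7 were higher and 13 lower in Tibetan than in Large White muscle, beside 13.0 and 63.2% of all entries, with a median of -0.36. Under median-ratio scaling 19 and 2 were called, beside 32.4 and 33.0%. The cargo receptor SQSTM1 (162.4 to 222.5 against 30.0 to 32.7 FPKM, log2 change 2.61), PINK1, a kinase of mitophagy (2.28), the muscle protease CAPN3 (2.50) and MAP1LC3A (1.70) were higher. BNIP3L, a mitophagy receptor known to be FoxO- and hypoxia-induced, was lower (2.45 to 2.57 against 15.3 to 16.9 FPKM, log2 change -2.28). Against Large White, Wujin libraries had 0 higher and 1, the protease gene CAPN2, lower by limma, beside 1.67 and 4.85% of all entries. The call of CAPN2 ended under median-ratio scaling. At an unadjusted p under 0.05 the counts were 3 and 6.

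Most tested genes of a list drawn up here under the name other atrophy-induced genes were higher in Tibetan libraries. The list also holds muscle genes such as PGAM2, and which of its members are induced in wasting muscle was not tested. Of 16 tested (30 listed), 11 were higher and 2 lower than in Large White muscle, beside 13.0 and 63.2% of all entries, and the median log2 change was 1.76. The counts against Wujin were also 11 and 2, beside 13.8 and 53.9%. The 2 lower calls against Large White became 4 without Tibetan 2. FOXO1 and EIF4EBP1 belong to this list too. PDK4, which restrains glucose oxidation, stood at 54.7, 96.6 and 28.1 FPKM against 0.704 to 1.36 in Large White libraries (log2 change 4.72), and UCP3, a mitochondrial carrier, at 97.1, 20.01 and 44.2 FPKM against 0.275 to 0.638 (4.95). Both varied more than TRIM63 among the Tibetan libraries. ANKRD2, a stretch-responsive protein (3.03), PGAM2, the muscle phosphoglycerate mutase (3.21), and ZFAND5, a ubiquitin-binding protein (1.81), were higher as well. CDKN1A was called lower (-0.72) but stood at 0.23 under median-ratio scaling, and MYL12A was lower (-1.44). Between Wujin and Large White limma called 0 of the 16, beside 1.67% of all entries higher and 4.85% lower. At an unadjusted p under 0.05, 2 were higher and 3 lower.

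Genes for reported substrates and partners of the pair were mostly higher in the muscle where the ligases were higher. Of 28 tested (44 listed), 16 were higher and 8 lower in Tibetan than in Large White muscle, beside 13.0 and 63.2% of all entries, with a median log2 change of 1.07, and 17 and 6 against Wujin, beside 13.8 and 53.9%. Under median-ratio scaling the split from Large White was 20 and 4, beside 32.4 and 33.0% of all entries. MYBPC2, the fast myosin-binding protein C, had the largest value among them (9.01), followed by MYH8, perinatal myosin heavy chain (5.91), whose reads may be shared with other myosin genes. MYOZ1 (4.11), the thick-filament light chain MYL1 (1.56) and desmin, DES (1.37), were higher as well. MYH3, embryonic myosin heavy chain (-4.79), and VIM, vimentin (-3.94), were lower. MYOD1, the myogenic factor reported as a target of FBXO32, stood at 31.4, 21.3 and 24.4 FPKM against 46.9 to 48.5 in Large White libraries, a log2 change of -0.89 as deposited and 0.06 under median-ratio scaling. Between Wujin and Large White, MYBPC2, MYH8, MYOZ1 and NRAP were higher and 2 others, VIM and MYOM1, lower, beside 1.67 and 4.85% of entries; the call of MYOM1 ended under median-ratio scaling. The 4 higher calls fell to 2 without Wujin 1 or Wujin a and to 1 without Large White 2 or Large White 3, and the 2 lower calls to 1 without Wujin 1, Wujin a, Large White 1 or Large White 3 and to 0 without Large White 2. Without Wujin b they were 5 and 3, and without Tibetan 2 they were 5 and 4. In the other lists, the counts of 0 or 1 lower calls between these breeds also moved with Wujin b: without it 3 ligases, 3 genes of the ubiquitin list, 3 of the proteasome, 4 ligands and receptors, 2 signal carriers and 4 autophagy genes were called lower. They moved with the processing too. A pseudocount of 5 gave 4, 6, 2, 3, 1 and 2 lower calls in the same order of lists. Quantile normalization gave 2 ligases higher and 1 lower. Calls over all 13106 entries, in either direction, rose as well. They went from 855 to 1633 without Wujin b, to 1831 with a pseudocount of 5 and to 1019 under quantile normalization. No shift of a list is read from these counts.

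**Figure D5:**
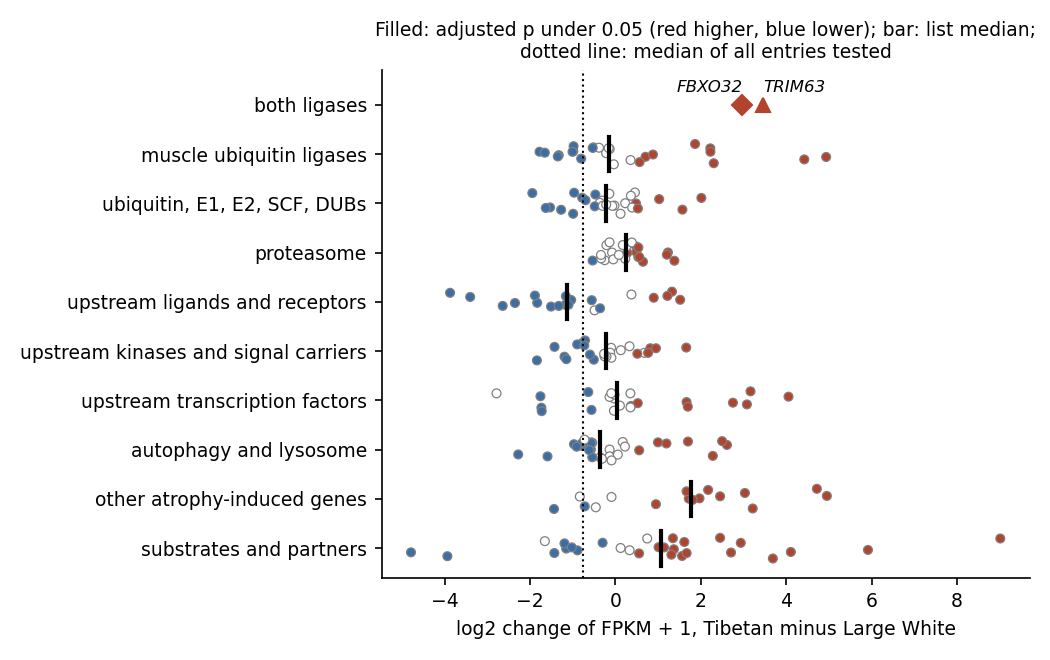
log2 change of FPKM + 1, Tibetan minus Large White, for the tested members of 9 gene lists and for TRIM63 and FBXO32; filled points have an adjusted p under 0.05 (red higher, blue lower), bars are list medians and the dotted line is the median of all entries, -0.77. Medians are highest for the list named other atrophy-induced genes (1.76) and the substrates (1.07), and lowest for ligands and receptors (-1.13).

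Markers of other cell types also differed in level between the breeds where the ligases did. Summed FPKM of 6 matched fibroblast and connective tissue markers was 319 to 356 for Tibetan, 3059 to 5569 for Wujin and 5299 to 5935 for Large White. For 6 proliferation markers it was 1.26 to 2.11, 53.4 to 68.9 and 87.0 to 91.4, and for 5 cartilage, bone and tendon markers 0.4998 to 1.31, 41.0 to 64.5 and 39.5 to 147.5, with COL9A1 at 0 in all Tibetan libraries. Erythroid markers summed to 148.5 to 579.5, 1470 to 3838 and 1930 to 3744, endothelial markers to 32.0 to 43.7, 52.6 to 82.2 and 84.1 to 88.7, and smooth muscle markers to 72.7 to 97.1, 568 to 623 and 426 to 575. All sums here are as deposited, where the median log2 change of all entries from Large White to Tibetan was -0.77. Under median-ratio scaling the endothelial marker PECAM1 went from -0.77 to 0.18, and the call of TIE1 (-1.15) ended. The smooth muscle marker SMTN went from -0.63 to 0.30. The endothelial sums are therefore not read as a deficit of these cells. Leukocyte markers overlapped (8.61 to 16.4, 7.83 to 13.6 and 11.8 to 17.2). Schwann cell and neuron markers summed to 9.38 to 16.9, 10.3 to 17.0 and 7.08 to 9.84. There the Tibetan range overlapped both others, and Wujin lay above Large White. Adipocyte markers were 11.4 to 11.8, 5.34 to 7.16 and 3.62 to 4.32. Cardiac markers summed to 1294 to 1960, 533 to 795 and 628 to 760, almost all of it MYH6, whose reads may be shared with other myosin genes, and NPPB and TBX5 were at 0 in all Tibetan libraries. The skeletal muscle sums without ACTA1, given above, were in the order of the breed means of TRIM63 and FBXO32, and so were the adipocyte sums. For neither ligase did limma call the step from Wujin to Large White. MYOD1, a member of the skeletal muscle list, was lower in Tibetan than in Large White muscle as deposited (-0.89), and at 0.06 under median-ratio scaling. In bulk samples fewer cells of a type and less RNA per cell cannot be told apart, and the part of these differences in the levels of TRIM63 and FBXO32 was not tested.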

How the data were processed

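RNA from embryonic longissimus dorsi of 9 samples, 3 per breed, was converted to libraries with the TruSeq RNA kit after Trizol extraction, per the labels' protocols. The authors deposited 1 table of FPKM per gene entry and library, per the file headers. The submitters' processing notes name TopHat. Which quantifier, annotation and build were used is not given in the sources used here, so positions are left out. Every column of sample values was used; columns were assigned by header, and 2 Wujin columns with the same header carry no number. Symbols were matched by identifier for 11179 of 19643 entries (56.91%), and 84 entries share an identifier with another; a symbol with several entries was taken by its highest mean.

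Entries averaging 1 FPKM or more (13106) were fitted as log2(FPKM + 1) with limma 3.58.1 in R 4.3.3 (3 breed means over all 9 libraries, eBayes with trend), after the code was tested on simulated data. A relative log2 change is a change minus the median of all entries tested. Log2 ratios, taken after 1 FPKM was added to both genes, were tested with an exact permutation test (scipy 1.17.1). Relative depth was read from values below 0.2 FPKM. Same-numbered Tibetan and Large White libraries did not deviate together (r = 0.013, -0.023 and -0.076), so no pairing was used.

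The members, gene lists and tests were chosen with earlier results of these data known. The naming rule took both members, every measured muscle ubiquitin ligase (a few are counted but not reported here), the 4 genes of smallest F-test p in each other list, and the 6 symbols most like each member over all libraries and within breeds. CUL1, PSMB7, IGF1, IGF1R, MSTN, TNFRSF12A, NR3C1, AKT2, EIF4EBP1, FOXO3, FOXO4, TFEB, MAP1LC3A, UCP3, CDKN1A, MYL12A, UBA6, CAPN2, MYL1, DES, VIM, MYOD1, MYOM1, NRAP, ACTA1, COL9A1, MYH6, NPPB and TBX5 were added to these with their values in view.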

Additional observations from a re-analysis of the deposited data

How the results depend on the processing

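The tests of TRIM63 and FBXO32 kept their direction and their side of the threshold under all 18 to 20 alternatives run for each: pseudocounts, filters, scalings, eBayes without trend, 6 libraries only and each library left out. Tibetan minus Large White ranged from 2.95 to 4.38 for TRIM63 and from 2.06 to 3.79 for FBXO32, and Wujin minus Large White from 0.25 to 0.68 (adjusted p 0.0666 to 0.357 by limma) and from 0.16 to 0.60 (adjusted p 0.157 to 0.731). A replicate block could be fitted for Tibetan and Large White alone, since 2 Wujin columns carry no number: the same log2 changes had adjusted p of 0.000109 for TRIM63 and 0.000582 for FBXO32, and 10064 entries were called, against 9983. Leaving out 1 library moved the exact permutation p of the FBXO32 to TRIM63 ratio over the breeds between 0.025 (without Tibetan 1) and 0.914 (without Tibetan 3), from 0.471, and the Wujin minus Large White log2 ratio between -0.22 and 0.062, the latter without Large White 3, from -0.10; the cause was not tested. A mean of at least 5 FPKM, which leaves fewer entries to test, gave 5533 calls for Tibetan minus Large White and 5181, against 8871, for Tibetan minus Wujin. For Wujin minus Large White the 855 calls became 270 with a pseudocount of 0.1, 1831 with 5, 402 with a mean of at least 5 FPKM, 410 under median-ratio scaling, 453 with equal totals without the 50 highest entries and 280 with 6 libraries, and 66 to 1633 with 1 library left out, lowest without Large White 3 and highest without Wujin b; the cause was not tested.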

Other observations

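NFKB1, a transcription factor subunit listed upstream of TRIM63, is listed at 0 in Tibetan 3 and Wujin 1, and at 21.4 and 14.1 FPKM in Tibetan 1 and 2 and 66.0 and 80.9 FPKM in Wujin a and b. Like the value of ACTA1 in Tibetan 2, these zeros stand beside high values in other libraries of the same breed, and no change of NFKB1 is given. CYP2D6 stood at 6.06, 0.888 and 0.133 FPKM in Tibetan 1, 2 and 3 and between 0.386 and 0.501 in all Wujin and Large White libraries, and SESN2, a stress-induced inhibitor of mTOR signalling, at 5.70, 1.53 and 3.95 FPKM in Tibetan libraries against 0.249 to 0.530 in Large White libraries.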
